A study of Macaca mulatta with 2 samples.

Results

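The glycolysis and pentose phosphate genes were 32 genes listed by name, from glucose transporters through the glycolytic enzymes to lactate export, pyruvate dehydrogenase and the pentose phosphate pathway. Of these, 31 were found among the 35432 genes of the count matrix, 29 by the symbol in the deposited gene list and 2 (ALDOA and GPI) through a table of gene names. PKM was not found under that name and has no values here. The members held 148742 of 30113654 UMIs in T cells, or 0.494% of the RNA counted, and 29 of the 31 had at least 50 UMIs. HK2 with 8 UMIs and PFKFB4 with 9 fell below that minimum. A UMI is a tag that marks 1 captured RNA molecule, and levels are given as UMIs per 1000000 UMIs of the class (CPM).

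Glycolysis turns glucose into pyruvate in the cytosol and yields ATP quickly. Lactate dehydrogenase then turns pyruvate into lactate, which monocarboxylate transporters carry out, or pyruvate dehydrogenase feeds it to the mitochondria unless a pyruvate dehydrogenase kinase such as PDK1 switches it off. The pentose phosphate pathway branches off after the first step to make NADPH and ribose for nucleotides. Naive T cells are known to use little glucose, whereas activated, dividing and effector T cells raise glycolysis.

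The cells were circulating CD4+CD8+ double-positive T cells from the peripheral blood of 1 untreated rhesus monkey aged 6 years. Magnetic beads against CD4 and then CD8 selected them, and the same droplets gave a 5′ gene expression library and a surface tag library for CD4 and CD8. All 7923 barcodes held UMIs of both libraries. After the study's filters 7601 cells remained, and 7311 of them (96.2%) had a CD3E UMI and were used, with a median of 3656 UMIs per cell. With 1 animal and 1 RNA library no test between conditions was possible, the n of every value is 1, and the 95% intervals cover counting error only.

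The 7311 CD3E+ cells were put in 7 classes by raw UMIs, each cell in the first class that took it. MKI67+ cells (205) had a UMI of the proliferation gene MKI67. FOXP3+ cells (143) had a UMI of the regulatory T cell factor FOXP3 and under 3 of GZMB. TRAV10+ cells (237) had a UMI of TRAV10, a variable segment of the T cell receptor alpha chain, and none of FOXP3. CX3CR1+ GZMB+ cells (1076) had at least 3 UMIs of granzyme B (GZMB) and 1 of the chemokine receptor CX3CR1, and CX3CR1-negative GZMB+ cells (1497) had no CX3CR1. CCR7+ cells (1819) had a UMI of the lymph node homing receptor CCR7, under 3 of GZMB and none of CX3CR1. The other 2334 cells, which no rule took, were the remaining class.

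Marker lists, which include the genes that set the classes, followed the class names. Cytotoxic markers (GZMB, CX3CR1, PRF1, NKG7, ADGRG1) summed to 168 CPM in CCR7+ cells and 6281 CPM in CX3CR1+ GZMB+ cells. Regulatory markers reached 590 CPM in FOXP3+ cells against 13.5 to 87.3 CPM in the other classes, and innate-like markers 2216 CPM in TRAV10+ cells. B cell markers summed to 36.7 to 109 CPM, monocyte markers to 0.816 to 13.1 CPM and platelet markers to 0 to 3.26 CPM. Natural killer markers (NCAM1, NCR1, KLRF1, FCGR3) summed to 166 and 170 CPM in the GZMB+ classes and 3.83 CPM in CCR7+ cells. KLRF1 and FCGR3 had UMIs in both GZMB+ classes and NCR1 in the CX3CR1-negative one, while NCAM1 was at 0 in both. Red cell markers ranged from 2.75 CPM in CCR7+ cells to 668 CPM in the remaining class. The part of these other cell markers in the results was not tested.

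Promoters are shown for LDHA and PGAM1, which were higher in both the cytotoxic and the MKI67+ cells, and for PDK1, the member most reduced in the cytotoxic cells. Each is the 250 bases before the gene start in RefSeq's Mmul_10 annotation, read 5′ to 3′ on the gene's strand, with each match to ACGTG, on either strand, in capitals. ACGTG is the core of the element bound by HIF-1, the hypoxia-inducible factor, and is also contained in CACGTG, the E-box bound by MYC and its relatives. The windows are LDHA at chr14:47189971-47190220 (minus strand), PGAM1 at chr9:97873770-97874019 (plus strand) and PDK1 at chr12:59657134-59657383 (plus strand).
LDHA: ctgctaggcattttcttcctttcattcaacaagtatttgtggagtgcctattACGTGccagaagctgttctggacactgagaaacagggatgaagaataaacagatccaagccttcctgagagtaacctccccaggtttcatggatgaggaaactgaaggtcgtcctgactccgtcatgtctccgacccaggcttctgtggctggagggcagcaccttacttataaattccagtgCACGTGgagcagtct
PGAM1: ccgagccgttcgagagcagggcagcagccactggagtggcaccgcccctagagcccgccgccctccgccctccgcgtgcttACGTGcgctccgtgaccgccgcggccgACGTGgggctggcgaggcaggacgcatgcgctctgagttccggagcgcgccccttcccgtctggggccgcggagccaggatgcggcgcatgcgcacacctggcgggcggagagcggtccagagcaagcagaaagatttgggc
PDK1: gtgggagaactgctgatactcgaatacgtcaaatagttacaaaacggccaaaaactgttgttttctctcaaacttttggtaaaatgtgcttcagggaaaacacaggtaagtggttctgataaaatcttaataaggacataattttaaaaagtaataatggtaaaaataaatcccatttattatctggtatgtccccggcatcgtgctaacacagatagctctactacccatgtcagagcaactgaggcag

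The LDHA window matched at -198 and in a CACGTG at -15 and -14, and the PGAM1 window at -169 and -142 from the gene start. No ACGTG lay in the PDK1 window, which overlaps another annotated gene. Over all members, 12 of 31 windows (38.7%) held ACGTG. So did 3808 of 20787 windows of the same length (18.3%) at the protein-coding genes of the annotation. CACGTG was in 3 of the 31 (9.68%) and in 6.45% of the 20787. ACGTG lay in 4 of the 8 members higher in the cytotoxic cells, 7 of the 18 within 1.5-fold there and 0 of the 3 lower. The higher members without it were PFKP, TPI1, PGLS and TALDO1. The members within 1.5-fold that held it were GPI, ALDOA, PGK1, LDHB, SLC16A3, PDHA1 and PDHB. A match is only a match of letters, and which start these cells use was not tested.

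The summed level of the members was lowest in CCR7+ and FOXP3+ cells and highest in MKI67+ cells. It was 4068 CPM (4025 to 4111) in CCR7+ cells and 4112 CPM (3955 to 4274) in FOXP3+ cells, whose intervals overlap. The remaining class had 4696 CPM (4651 to 4740) and TRAV10+ cells 4831 CPM (4698 to 4967), which also overlap. CX3CR1-negative GZMB+ cells had 5619 CPM (5556 to 5683), CX3CR1+ GZMB+ cells 5949 CPM (5877 to 6023) and MKI67+ cells 6661 CPM (6518 to 6807), each above the one before by more than the counting intervals. Ribosomal protein genes took 34.4% of UMIs in CCR7+ cells, 33.5% in FOXP3+ cells, 23.0% in CX3CR1+ GZMB+ cells and 22.7% in MKI67+ cells. Per 1000000 UMIs outside ribosomal protein and mitochondrial genes, the members summed to 6740 in CCR7+ cells, 8291 in CX3CR1+ GZMB+ cells and 9230 in MKI67+ cells, so the order of these 3 classes was the same and the distance smaller.

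Single cells overlapped widely between the classes. When each cell was thinned to 2000 UMIs, which left 6935 of the 7311 cells, the median number of member UMIs per cell was 8 in CCR7+ and FOXP3+ cells, 9 in TRAV10+ cells and the remaining class, 11 in CX3CR1-negative GZMB+ cells and 12 in CX3CR1+ GZMB+ and MKI67+ cells. The range from the 10th to the 90th percentile was 4 to 13 in CCR7+ cells and 7 to 18 in CX3CR1+ GZMB+ cells. No thinned cell had 0 member UMIs.

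The summed level rose stepwise with GZMB, from 4403 CPM in the 4038 cells without a GZMB UMI through 4906, 5335 and 6021 CPM to 6794 CPM in the 143 cells with 30 or more. With CX3CR1 it was 4728 CPM at 0 UMIs and 6494 CPM at 3 or more, and with MKI67 4866 CPM at 0 and 8044 CPM in the 21 cells with 3 or more. CCR7 ran the other way, from 5362 CPM at 0 to 4196 CPM at 1 UMI, and further CCR7 UMIs changed little (4116 CPM at 3 or more). FOXP3 and TRAV10 showed no step-by-step trend, with 4948, 4441 and 4919 CPM at 0, 1 and 2 or more FOXP3 UMIs, and 4943, 4631 and 4899 CPM for TRAV10. PDK1 ran against the sum along GZMB, from 41.8 CPM at 0 to 14.4 CPM at 30 or more. The 21 cells with 3 or more MKI67 UMIs had a median of 7045 UMIs, against 3634.5 at 0 MKI67 UMIs. Ribosomal protein genes took 18.9% of their UMIs, against 29.6% at 0 MKI67 UMIs. Along GZMB that share fell from 32.8% at 0 to 21.2% at 30 or more. The part of depth and of the ribosomal share in these steps was not tested.

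**Figure D1:**
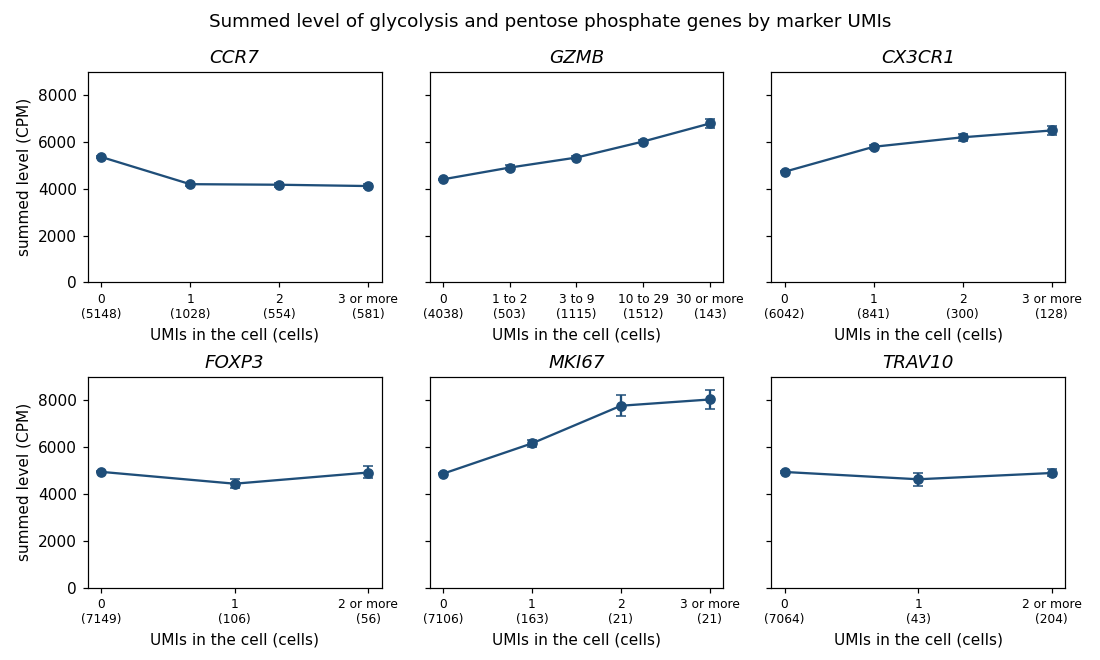
Summed level of the members in CPM (y axis) by the raw UMIs of each of the 6 marker genes in the cell (x axis, with the number of cells below each bin); bars are 95% counting intervals. The level climbs with GZMB from 4403 to 6794 CPM and with MKI67 from 4866 to 8044 CPM, and drops from 5362 to 4196 CPM between 0 and 1 CCR7 UMI.

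The members did not share 1 profile. Of the 29 above the minimum, 17 (58.6%) had their highest level in MKI67+ cells, against 28.8% of the 10019 genes above the minimum. The lowest level lay in FOXP3+ cells for 12 members (41.4%), against 37.0% of all genes. In 24 members (82.8%) the highest class was at least 1.5 times the lowest, close to the 79.7% of all genes, with a class at 0 UMIs, as for SLC16A1 in FOXP3+ cells, set to 3 UMIs. FOXP3+ cells held the highest level of 4 members (13.8%), ALDOA, LDHB, PDK1 and RPIA, close to the 14.97% of all genes. For ALDOA and LDHB the counting intervals of FOXP3+ and MKI67+ cells overlapped. The least varied were the glucose transporter SLC2A3, at 86.2 to 104 CPM, and the aldolase ALDOA, at 659 to 817 CPM. GAPDH, the NADH-producing step, gave 31.6% of the member UMIs and ALDOA 14.6%.

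**Figure D2:**
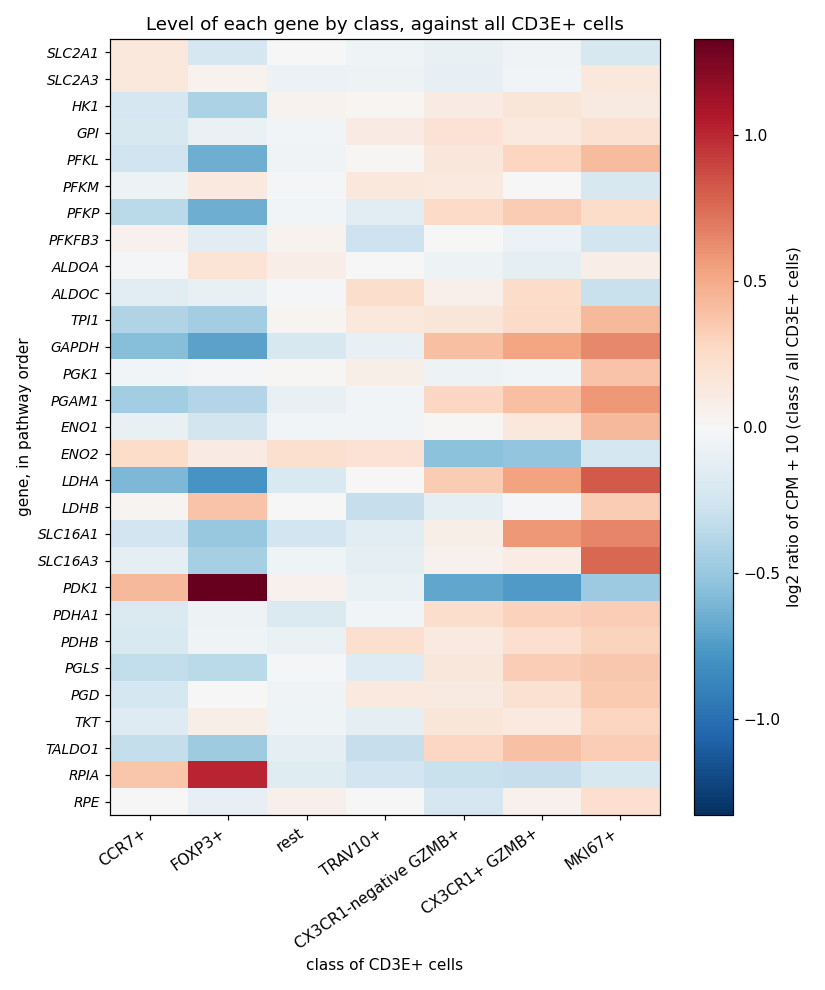
Level of the 29 members above the minimum (rows, in pathway order) in the 7 classes (columns), as the log2 ratio of CPM + 10 to that of all CD3E+ cells; red is higher and blue lower. GAPDH, PGAM1 and LDHA turn from blue in CCR7+ and FOXP3+ cells to red in GZMB+ and MKI67+ cells, while PDK1 and RPIA are darkest red in FOXP3+ cells.

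By step of the pathway, the lower steps spanned the widest range of levels, and GAPDH carried much of it. The 6 members from TPI1 to ENO2 summed to 2073 CPM in CCR7+ cells, 1919 in FOXP3+, 2525 in the remaining class, 2689 in TRAV10+, 3288 in CX3CR1-negative GZMB+, 3560 in CX3CR1+ GZMB+ and 4017 CPM in MKI67+ cells. The 10 members of the upper steps, from hexokinase to aldolase, stayed between 1156 CPM in CCR7+ cells and 1385 CPM in MKI67+ cells. The 4 transporters of glucose and lactate lay between 123 and 184 CPM and the 6 pentose phosphate members between 474 and 674 CPM. The 5 members at the fate of pyruvate ran from 221 CPM in CCR7+ cells to 401 CPM in MKI67+ cells. Without GAPDH the lower steps ran from 973 CPM in FOXP3+ cells to 1586 CPM in MKI67+ cells.

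CX3CR1+ GZMB+ cells, the cytotoxic class, were compared with CCR7+ cells, which carry the homing receptor of naive cells. The members summed to 1.46 times the CCR7+ level (log2 ratio 0.55, 0.53 to 0.57), with LDHA, GAPDH and PGAM1 well above and PDK1 well below their CCR7+ levels. A gene was counted as different when its ratio of CPM + 10 reached 1.5 in either direction, with no test behind it. Of the 29 members, 8 were higher and 3 lower, where 13.4% of the 10019 genes above the minimum were higher and 4.41% lower. The median log2 ratio of CPM + 10 was 0.34 over the members and 0.14 over all genes.

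Among transporters, SLC16A1, a lactate carrier, was at 11.2 CPM in CX3CR1+ GZMB+ cells (48 UMIs) and 1.92 CPM in CCR7+ cells (16 UMIs), a log2 ratio of 2.54 (1.70 to 3.46). SLC2A1 and SLC2A3, which bring glucose in, stayed within 1.5-fold, as did the lactate exporter SLC16A3. The transporters together gave a log2 ratio of 0.011 (-0.13 to 0.15). SLC16A1 was the only transporter past the 1.5-fold mark.

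In the upper steps, PFKP, the platelet-type phosphofructokinase, had 38.1 against 19.8 CPM (log2 ratio 0.95, 0.63 to 1.27). HK1, GPI, PFKL, PFKM, PFKFB3, ALDOA and ALDOC were within 1.5-fold on CPM + 10, PFKL just outside the mark at 0.55 on that log2 scale. Without the added 10, PFKL had 97.8 against 63.5 CPM (0.62, 0.44 to 0.81) and ALDOC 12.8 against 7.42 CPM (0.78, 0.23 to 1.33). The upper steps together had a log2 ratio of 0.13 (0.079 to 0.18). PFKP was the only member of the upper steps past the mark.

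In the lower steps, GAPDH stood at 2241 against 1051 CPM (log2 ratio 1.09, 1.05 to 1.13). TPI1, which interconverts the trioses, had 463 against 291 CPM (0.67, 0.59 to 0.76), and PGAM1, the phosphoglycerate mutase, 177 against 93.0 CPM (0.93, 0.78 to 1.08). PGK1 and the main enolase ENO1 were within 1.5-fold. ENO2, the neuron-type enolase, was lower, at 31.6 against 60.8 CPM (-0.95, -1.23 to -0.67). ENO2 overlaps LRRC23 on the same strand in the annotation, and LRRC23 had 0 UMIs in every class. The lower steps together had a log2 ratio of 0.78 (0.75 to 0.81), and of 0.37 (0.32 to 0.42) without GAPDH.

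At the fate of pyruvate, LDHA, the lactate dehydrogenase subunit favoring lactate, had 214 against 92.0 CPM (1.22, 1.08 to 1.36), while LDHB was within 1.5-fold. PDK1 moved the other way, at 14.6 against 45.7 CPM (-1.64, -2.05 to -1.26). PDHA1 and PDHB, subunits of the enzyme it inhibits, were within 1.5-fold on CPM + 10. Without the added 10, PDHA1 had 17.4 against 9.46 CPM (0.88, 0.41 to 1.36). PDK1 overlaps a long non-coding RNA gene on the opposite strand.

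In the pentose phosphate pathway, PGLS, the lactonase, had 173 against 107 CPM (0.70, 0.56 to 0.84) and TALDO1, transaldolase, 243 against 145 CPM (0.74, 0.62 to 0.87). RPIA, which makes ribose 5-phosphate, was lower at 42.8 against 74.5 CPM (-0.80, -1.05 to -0.56). PGD, TKT and RPE were within 1.5-fold. Members of both the oxidative and the non-oxidative branch were higher, and the isomerase was lower.

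Among the 16 other settings, GAPDH, PGAM1 and LDHA stayed at least 1.5-fold higher in all 16. With UMIs outside ribosomal protein and mitochondrial genes as the denominator, 4 members in place of 8 were higher and the sum differed by 0.30 on the log2 scale with PFKP, TPI1, PGLS and TALDO1 under the mark. With that denominator 9.02% of all genes were higher and 8.93% lower.

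**Figure D3:**
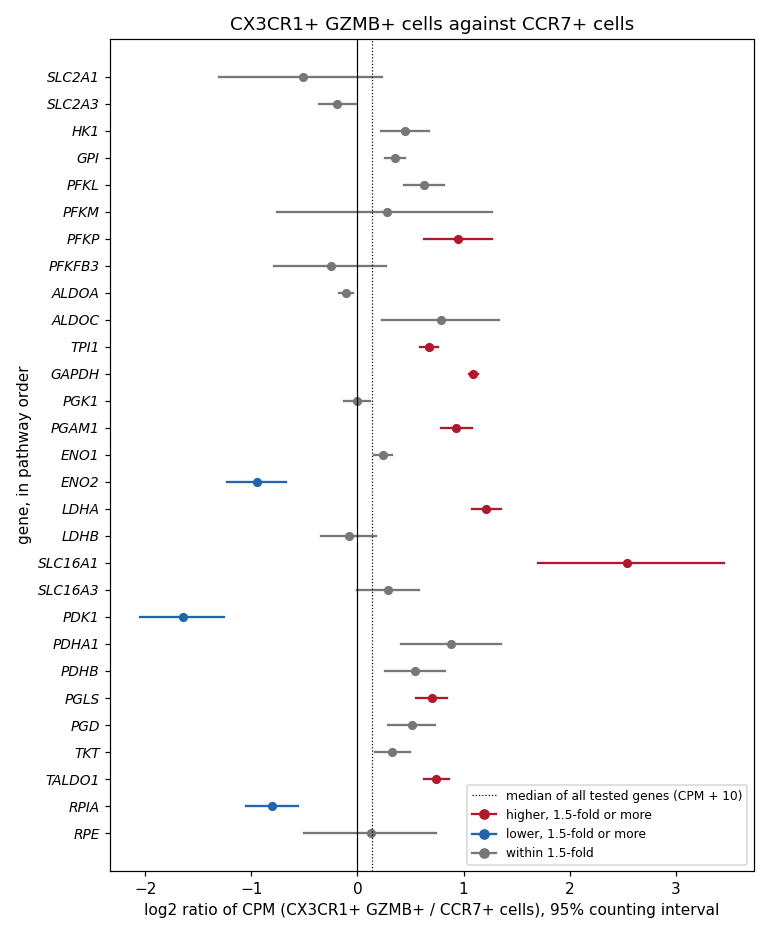
Log2 ratio of CPM in CX3CR1+ GZMB+ over CCR7+ cells (x axis) for the 29 members (y axis, in pathway order) with 95% counting intervals; red and blue mark members 1.5-fold or more higher or lower on CPM + 10, and the dotted line is the median of all tested genes (0.14). LDHA (1.22), GAPDH (1.09) and SLC16A1 (2.54) lie to the right and PDK1 (-1.64), ENO2 (-0.95) and RPIA (-0.80) to the left.

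Other genes of glucose metabolism outside the members gave 6 higher and 1 lower of 27 tested (median 0.34), where 13.4% of all genes were higher and 4.41% lower. Among the higher ones were the pyruvate carrier subunit MPC1 (log2 ratio 1.13), the lipoamide dehydrogenase DLD (0.92), the lactate carrier chaperone BSG (0.77), the transporter SLC2A6 (1.46) and PGM2 (1.17), while GAPDHS was lower (-1.87). Of 20 tested genes of the TCA cycle 3 were higher, IDH2 (1.75), SDHB (0.71) and SDHC (0.68), a share near the 13.4% of all genes, with a median of 0.38. Of 18 tested regulators none was higher and 3 were lower, HIF1A (-1.34), the oxygen sensor EGLN3 (-2.37) and MYC (-1.43), beside the same 4.41% of all genes. In the cytotoxic class HIF1A had 44 UMIs, MYC 93, EGLN3 27 and GAPDHS 11. HIF1A and MYC are known to raise glycolytic genes, and whether they bear on the members here was not tested.

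MKI67+ cells, taken as dividing, were compared with the 7106 CD3E+ cells without MKI67. The members summed to 1.37 times their level (log2 ratio 0.45, 0.42 to 0.49), and 5 of 29 were higher and none lower, where 6.08% of all genes were higher and 1.2% lower. The 5 were 3 of the enzymes above and both lactate carriers. The medians were 0.31 over the members and 0.076 over all genes.

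GAPDH had 2431 CPM in MKI67+ cells and 1523 CPM in the others (0.68, 0.62 to 0.73), PGAM1 202 and 129 CPM (0.64, 0.45 to 0.83), and LDHA 261 and 140 CPM (0.90, 0.73 to 1.07). Of the lactate carriers SLC16A3 had 64.4 and 32.6 CPM (0.98, 0.63 to 1.31) and SLC16A1 12.2 CPM on 15 UMIs and 3.84 CPM (1.67, 0.79 to 2.45). PDK1 was within 1.5-fold, at -0.50 on the log2 scale of CPM + 10. SLC16A3 overlaps CSNK1D on the opposite strand.

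Cells with a MKI67 UMI were deeper, with a median of 5008 UMIs against 3634.5, and 57.6% of them had 3 or more GZMB UMIs. Among GZMB+ cells the log2 ratio of the sum was 0.28 (118 against 2652 cells) with 1 member higher, SLC16A3, and none lower, where 3.86% of all genes were higher and 2.34% lower. Among cells with under 3 GZMB UMIs it was 0.53 (87 against 4454 cells), and 7 members were higher, the 5 and PDHA1 and PDHB, and none lower, where 11.1% of all genes were higher and 3.58% lower. By tertiles of depth, 3 about equal groups of cells by total UMIs, the log2 ratio was 0.13 (30 MKI67+ cells), 0.33 (51) and 0.57 (124) from the shallow to the deep tertile. In the middle tertile SLC16A1 and SLC16A3 were below 0, at -0.40 and -0.36 on the log2 scale of CPM + 10, short of 1.5-fold. These 2 values rest on 51 MKI67+ cells with no counting interval computed, so a lower level there was not shown. Over the 16 other settings LDHA stayed at least 1.5-fold higher in 14, GAPDH in 12 and PGAM1 in 9. The part of depth in the difference was not tested.

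In the other lists, PRPS2, which makes the nucleotide precursor PRPP, was the only 1 of 27 other pathway genes at least 1.5-fold higher (0.86). IDH2 (1.08), IDH3G (0.74) and MDH1 (0.70) were the 3 higher of 20 TCA cycle genes. Over all genes 6.08% were higher and 1.2% lower in this comparison. TXNIP, an inhibitor of glucose uptake, was the only regulator past the mark, at 1136 against 1738 CPM (-0.61, -0.69 to -0.54).

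FOXP3+ cells differed from CCR7+ cells in few members. FOXP3+ cells also carried CCR7, at 394 CPM against 433 CPM in the CCR7+ class, and the class order took them first. The sum gave a log2 ratio of 0.016 (-0.043 to 0.073), so no difference in the sum was detectable. By step, the upper steps gave 0.13 (0.020 to 0.23) and the fate of pyruvate 0.33 (0.095 to 0.55). The lower steps gave -0.11 (-0.20 to -0.027), but -0.071 (-0.19 to 0.047) without GAPDH, an interval that held 0. ALDOA held 512 of the 791 UMIs of the upper steps in FOXP3+ cells and 5916 of 9654 in CCR7+ cells. At the fate of pyruvate PDK1 held 59 of 174 UMIs in FOXP3+ cells and 382 of 1847 in CCR7+ cells. Sums of these steps without ALDOA or PDK1 were not computed. The intervals of the transporters and of the pentose phosphate members held 0. PDK1 and RPIA were higher and no member was lower, where 2.62% of all genes were higher and 4.37% lower. The median was -0.066 over the members and -0.030 over all genes.

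PDK1 had 94.1 CPM (59 UMIs) in FOXP3+ cells, the highest of all classes, 45.7 CPM in CCR7+ cells, 33.2 in the remaining class, 29.1 in TRAV10+, 19.6 in MKI67+, 15.7 in CX3CR1-negative GZMB+ and 14.6 CPM in CX3CR1+ GZMB+ cells. The log2 ratio of FOXP3+ to CCR7+ cells was 1.04 (0.62 to 1.44). RPIA had 121 CPM in FOXP3+ and 74.5 in CCR7+ cells (log2 ratio 0.70, 0.34 to 1.05) and 42.8 to 48.6 CPM in the other 5 classes. Both genes thus ran high in FOXP3+, intermediate in CCR7+ and low in GZMB+ cells. FOXP3+ cells carried less surface tag than CCR7+ cells, with medians of 305 and 432 CD4 tag UMIs and of 164 and 364 CD8 tag UMIs. CCR7+ cells in the low tertile of the CD4 tag had 72.8 CPM of PDK1 and 120 CPM of RPIA, and the part of the tags in the difference was not tested. PDK1 stayed at least 1.5-fold higher in 14 of 16 other settings, not with 2 marker UMIs required or in the middle tertile of depth, and RPIA in 11 of 16.

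LDHA was at 79.7 CPM and GAPDH at 946 CPM in FOXP3+ cells, within 1.5-fold of CCR7+ cells, and SLC16A1 at 0 UMIs, which allows a level of up to 4.78 CPM (3 UMIs in the class). Of the other lists, GAPDHS (1.26) and BPGM (1.41) were higher on 14 and 8 UMIs. ARNT (-1.10), MYC (-1.19) and PRKAA1 (-1.16), a subunit of the energy sensor AMPK, were lower, and MLXIP had 0 UMIs. With 143 cells, these rest on 0 to 16 UMIs each in FOXP3+ cells.

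TRAV10+ cells had a lower sum than CX3CR1+ GZMB+ cells, with a log2 ratio of -0.30 (-0.34 to -0.26). GAPDH, SLC16A1 and TALDO1 were lower and ENO2 and PDK1 higher, where 6.55% of all genes were lower and 2.64% higher. The medians were -0.13 over the members and -0.099 over all genes. This comparison shares the CX3CR1+ GZMB+ cells with that against CCR7+ cells.

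GAPDH was at 1460 against 2241 CPM (-0.62, -0.70 to -0.54) and TALDO1 at 147 against 243 CPM (-0.73, -0.98 to -0.48). SLC16A1 had only 3 UMIs in TRAV10+ cells (-1.94, -4.27 to -0.30). ENO2 was at 58.2 against 31.6 CPM (0.88, 0.42 to 1.33) and PDK1 at 29.1 against 14.6 CPM (0.99, 0.31 to 1.64). LDHA lay just outside the mark at -0.54 on CPM + 10. Of the TRAV10+ cells 33.3% had 3 or more GZMB UMIs. GAPDH fell within 1.5-fold in 4 of 16 other settings, among them the denominator without ribosomal protein and mitochondrial genes.

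Of the other lists, DLD (-1.31), BPGM (-2.30, on 2 UMIs), IDH2 (-1.20), IDH3A (-2.00, on 4 UMIs), IDH3G (-0.88) and SDHB (-0.87) were lower. HIF1A (1.30), EGLN3 (1.31) and MYC (1.48) were higher, the 3 regulators that were low in the cytotoxic class.

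Within GZMB+ cells, those with and without CX3CR1 were close. The log2 ratio of the sum was 0.082 (0.058 to 0.11). On CPM + 10 no member of 29 reached 1.5-fold, and 0.12% of all genes were higher and 0.17% lower. The nearest was SLC16A1, at 11.2 CPM with CX3CR1 and 4.98 CPM without (0.50 on the log2 scale of CPM + 10). RPE, also low, was at 8.36 CPM with CX3CR1 and 5.17 CPM without. Both were past 1.5-fold in CPM without the added 10. No gene of the other pathway, regulator or TCA cycle lists reached the mark. Of CD3E+ cells with CX3CR1, 841 had 1 UMI, 300 had 2 and 128 had 3 or more, so cells without a UMI were not shown to lack it. With 2 UMIs of a marker required the log2 ratio of the sum was 0.16 (0.13 to 0.19), with 1 member higher, where 0.589% of all genes were higher.

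Which of 2 related enzymes was counted also differed between classes. Shares of a pair's UMIs were compared between classes, not between the genes. LDHA made up 57.5% (46.4 to 68.0) of LDHA and LDHB UMIs in FOXP3+ cells, 67.4% (64.6 to 70.1) in CCR7+ cells and 74.3% (72.1 to 76.5) in the remaining class. In TRAV10+, CX3CR1-negative GZMB+, CX3CR1+ GZMB+ and MKI67+ cells it was 81.3, 82.9, 83.5 and 82.1%, with overlapping intervals. LDHB, the subunit favoring pyruvate, ranged from 33.0 CPM in TRAV10+ cells to 59.0 CPM in FOXP3+ cells, 1.79 times, and LDHA from 79.7 CPM in FOXP3+ cells to 261 CPM in MKI67+ cells, 3.27 times.

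ENO2 gave 13.7% (12.6 to 14.9) of ENO1 and ENO2 UMIs in CCR7+ cells and 6.53% (5.50 to 7.67) in CX3CR1+ GZMB+ cells. The classes fell into 2 levels, 12.7 to 13.7% in CCR7+, FOXP3+, TRAV10+ and remaining cells and 6.53 to 6.93% in both GZMB+ classes and MKI67+ cells. SLC16A3 gave 76.8% (70.5 to 82.4) of the lactate carrier UMIs in CX3CR1+ GZMB+ cells and 94.0% (90.5 to 96.5) in CCR7+ cells. SLC2A1 in the glucose transporters stayed at 3.03 to 6.25% and PFKP in the phosphofructokinases at 22.0 to 27.6%, with overlapping intervals.

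**Figure D4:**
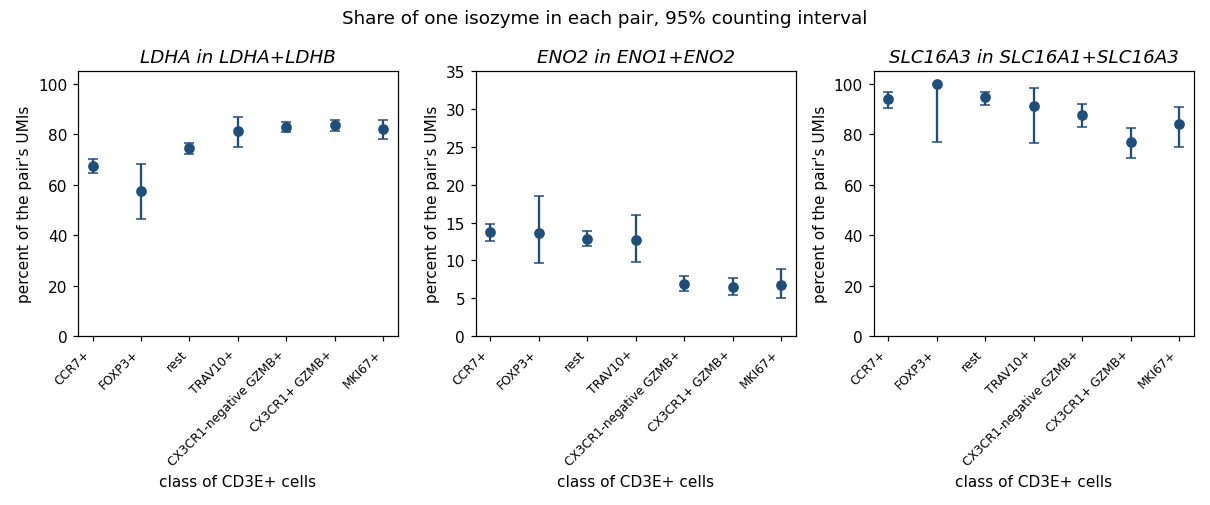
Share (percent of the pair's UMIs, y axis) of LDHA in LDHA and LDHB, ENO2 in ENO1 and ENO2, and SLC16A3 in SLC16A1 and SLC16A3 in the 7 classes (x axis), with 95% counting intervals. LDHA is lowest in FOXP3+ (57.5%) and CCR7+ cells (67.4%), and ENO2 lies at 12.7 to 13.7% in CCR7+, FOXP3+, remaining and TRAV10+ cells and at 6.53 to 6.93% in GZMB+ and MKI67+ cells.

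PDK1 and RPIA also varied inside the CCR7+ class with the surface tags, which no rule used. These genes were chosen here after their values had been seen. Over low, middle and high tertiles (3 about equal groups of the CD3E+ cells) of CD4 tag UMIs PDK1 was at 72.8, 50.9 and 34.1 CPM in CCR7+ cells, and RPIA at 120, 76.8 and 59.3 CPM. Over tertiles of the CD8 tag PDK1 was at 56.5, 47.4 and 38.4 CPM and RPIA at 108, 64.4 and 59.7 CPM. Before depth was set apart, both RNAs were thus higher in CCR7+ cells with less CD4 tag, and GAPDH ran the other way, at 865, 1035 and 1117 CPM over the CD4 tertiles.

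Deeper cells also had more tag, with a median of 3453.5, 4074 and 4846 UMIs over the CD4 tertiles of CCR7+ cells, and both genes fell with depth itself. Over tertiles of depth PDK1 was at 72.6, 58.3 and 36.1 CPM and RPIA at 124, 90.3 and 59.6 CPM. Within the low tertile of depth PDK1 was at 89.2 (61.0 to 126), 58.5 (37.1 to 87.8) and 70.1 CPM (34.98 to 125) over the CD4 tertiles, with overlapping intervals and no order. RPIA was there at 159 (120 to 206), 109 (79.2 to 147) and 82.8 CPM (44.1 to 142), and the intervals of neighbours overlap. Within the middle tertile of depth PDK1 was at 83.6 (61.4 to 111), 58.9 (43.9 to 77.5) and 37.2 CPM (24.3 to 54.5) over the CD4 tertiles, and RPIA at 121 (93.9 to 153), 94.8 and 60.1 CPM (43.3 to 81.3). Within the deep tertile PDK1 was at 39.3, 44.6 and 31.9 CPM and RPIA at 78.6 (52.2 to 114), 58.6 and 58.1 CPM (50.3 to 66.8), with overlapping intervals for both. An ordered fall of PDK1 with the CD4 tag was thus seen in 1 of the 3 tertiles of depth, the middle one. RPIA was highest at low CD4 tag in all 3, with low and high tag apart by more than the intervals only in the middle one. GAPDH rose over the CD4 tertiles in all 3 tertiles of depth. It was at 845, 1071 and 1401 CPM in the low, 818, 1040 and 1199.5 CPM in the middle and 960, 1023 and 1087 CPM in the deep tertile. Its intervals at low and high tag overlapped only in the deep tertile.

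**Figure D5:**
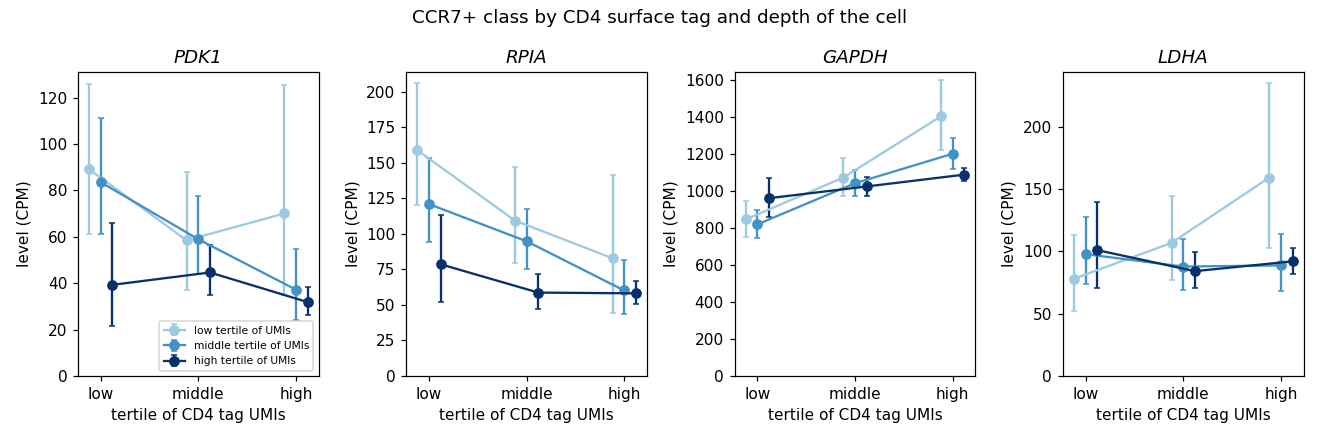
Level (CPM, y axis) of PDK1, RPIA, GAPDH and LDHA in CCR7+ cells by tertile of CD4 tag UMIs (x axis), drawn separately for cells in the low, middle and high tertile of total UMIs, with 95% counting intervals. PDK1 goes from 83.6 to 37.2 CPM in the middle tertile of depth but has no order in the low (89.2, 58.5 and 70.1 CPM) and high tertile (39.3, 44.6 and 31.9 CPM). In the middle tertile RPIA goes from 121 to 60.1 CPM and GAPDH from 818 to 1199.5 CPM.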

How the data were processed

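The data are the count matrix of 1 RNA library and 1 library of CD4 and CD8 surface tags from CD4+CD8+ T cells of 1 rhesus monkey, so there were no replicates, and samples were grouped by library only. The deposited counts are whole numbers of UMIs for each barcode and each gene or tag, not normalized. The submitters' processing notes name Cell Ranger 3.1.0, STAR 2.5.1b, Seurat 3.1.3 and the Mmul_10 build for what the authors did. The release of the gene annotation and the use of strand in counting are not given in the sources used here.

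Barcodes with 200 to 4000 genes, at most 20% mitochondrial UMIs (37 features) and at least 1 CD3E UMI were kept. UMIs were summed per class, divided by all gene UMIs of the class and multiplied by 1000000 (CPM). A class at 0 UMIs is given an upper limit of 3 UMIs. Levels carry exact Poisson intervals, log2 ratios exact intervals from the binomial split of both counts, and shares of a pair exact Clopper-Pearson intervals, all at 95%. A gene with at least 50 UMIs in CD3E+ cells was compared, and was called when its ratio of CPM + 10 reached 1.5. The depth was 30113654 UMIs over the 7311 cells, with 626983 UMIs in the smallest class (FOXP3+) and 9157317 in the largest.

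All members are named. Members past 1.5-fold are given with values, and genes of the other pathway, regulator and TCA cycle lists are named only where past 1.5-fold. Results for some genes and 1 sequence are not reported here. The members and lists were chosen with earlier results of these data known. Scrublet in scanpy 1.11.5 marked 0 of 7601 cells as doublets at its own threshold, so it did not work here and none was removed, and an alternative drops the 380 top-scored cells. Each cell was thinned to 2000 UMIs with seed 1 for values per cell. Alternatives were another denominator, thinning, means over cells, pseudocounts of 1 and 50, other UMI thresholds (2 of a marker, 1 or 10 of GZMB), a mitochondrial limit of 10%, no highest doublet scores, tertiles of depth, no GAPDH, no CD3E requirement, no minimum of UMIs per gene and the median over members. Centring on the median of all genes was chosen after seeing the data. Dropping the minimum of UMIs cannot change the ratio of a single gene, and the GZMB thresholds do not alter the MKI67 comparison. Promoters and positions come from RefSeq's annotation of Mmul_10 by symbol. In it 8 of the 31 members overlap another gene. GAPDH, LDHA, PGK1 and other glycolytic genes are known to have processed copies of similar sequence, which were not searched for here. The counting of the UMIs of all these genes is therefore uncertain. Python 3.11.15, numpy 2.4.6, scipy 1.17.1, pandas 2.3.3 and matplotlib 3.10.9 were used, and the computation was tested on simulated data.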

Additional observations from a re-analysis of the deposited data

How the results depend on the processing

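No paired analysis was possible because the data come from 1 animal with 1 RNA library, and for the same reason no replicate could be left out. In CX3CR1+ GZMB+ cells against CCR7+ cells, the summed log2 ratio (0.55) stayed above 0 in all 15 settings that give it. It ran from 0.30 to 0.65. The members at least 1.5-fold higher numbered 4 to 11. The 11 came with a pseudocount of 1, where 25.3% of all genes were higher. The 4 came with UMIs outside ribosomal protein and mitochondrial genes (9.02% of all genes) and with centring on the all-gene median (8.37%). The MKI67 comparison stayed above 0 (0.13 to 0.70), though its interval in the low tertile of depth (-0.0059 to 0.26) held 0, and the TRAV10 comparison below 0 (-0.36 to -0.13), whereas the FOXP3 comparison took both signs (-0.16 to 0.15). The FOXP3 intervals lay below 0 in the middle tertile of depth (-0.27 to -0.060) and above 0 in the high tertile (0.068 to 0.22). The cause of each change below was not tested. The smallest classes rest on 143 and 205 cells, and tertiles of depth on as few as 28, so counts of members there are the least certain.

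With UMIs outside ribosomal protein and mitochondrial genes, the cytotoxic against CCR7+ sum gave 0.30 with 4 members higher. The MKI67 comparison gave 0.30 with 3 higher and 1 lower, and the TRAV10 comparison -0.14 with 1 lower. The CX3CR1 split within GZMB+ cells gave 0.048. Of all genes 9.02% were then higher in the cytotoxic comparison, 4.65% higher and 3.86% lower for MKI67, and 5.65% lower for TRAV10. Thinned to 2000 UMIs, the cytotoxic sum was 0.58, MKI67 was 0.36 with 3 higher and 1 lower, FOXP3 was -0.055 with 1 higher and 3 lower, and TRAV10 had 6 lower. Of all genes after thinning, 9.34% were higher and 4.99% lower for MKI67, 6.23% and 11.1% for FOXP3, and 13.1% lower for TRAV10. As means over cells, MKI67 was 0.37 with 2 higher and 1 lower, and FOXP3 was -0.047 with 1 lower. All genes as means gave 4.89% higher and 1.71% lower for MKI67, and 6.01% lower for FOXP3. A pseudocount of 50 left 5 higher and 0 lower in the cytotoxic comparison, 2 higher in MKI67, 1 higher in FOXP3, and 0 higher and 1 lower in TRAV10. Over all genes it left 4.62% higher and 1.35% lower in the cytotoxic comparison, 1.36% higher in MKI67 and 0.349% higher in FOXP3. For TRAV10 it left 0.509% of all genes higher and 1.46% lower. A pseudocount of 1 gave 4 lower in MKI67, 2 lower in FOXP3 and 2 higher in the CX3CR1 split. All genes gave 9.77% lower in MKI67, 18.7% lower in FOXP3 and 2.82% higher in the split.

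With 2 UMIs of a marker required, the cytotoxic sum was 0.65, MKI67 was 0.70 with 10 higher and 2 lower, FOXP3 was 0.087 with 3 lower, TRAV10 was -0.36 with 5 lower, and the CX3CR1 split 0.16 with 1 higher. Of all genes 15.7% were then higher and 8.71% lower for MKI67, 12.2% lower for FOXP3 and 9.45% lower for TRAV10. In the CX3CR1 split 0.589% were higher. With 10 GZMB UMIs the cytotoxic sum was 0.58 and the CX3CR1 split 0.031, and with 1 GZMB UMI the split was 0.12. A mitochondrial limit of 10% gave FOXP3 -0.046 with 1 higher and TRAV10 1 higher. There 2.59% of all genes were higher for FOXP3 and 2.70% for TRAV10. Without the highest doublet scores the cytotoxic sum was 0.59, MKI67 0.49, TRAV10 -0.35 with 5 lower, and the CX3CR1 split had 1 higher. Of all genes 8.62% were then lower for TRAV10 and 0.141% higher in the split.

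In the low tertile of depth the cytotoxic sum was 0.51, MKI67 was 0.13 with 4 higher and 5 lower, FOXP3 -0.10 with 3 higher and 9 lower, TRAV10 -0.18 with 1 higher and 9 lower, and the CX3CR1 split 0.035. All genes also spread there, with 19.2% higher and 22.4% lower for MKI67, 11.4% and 35.5% for FOXP3, and 11.97% and 23.0% for TRAV10. In the middle tertile these were 0.58 for the cytotoxic sum and 0.33 with 1 higher and 1 lower for MKI67. FOXP3 gave -0.16 with 1 higher and 3 lower. All genes there gave 13.7% higher and 13.4% lower for MKI67, and 7.19% and 16% for FOXP3. In the high tertile the cytotoxic sum was 0.52, MKI67 0.57, and FOXP3 0.15 with 4 higher and 2 lower. TRAV10 had 1 higher there, and the CX3CR1 split was 0.15 with 1 higher. All genes gave 7.68% higher and 9.50% lower for FOXP3, 3.49% higher for TRAV10 and 1.37% higher for the split.

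Without GAPDH the sums were 0.30 for the cytotoxic comparison, 0.34 for MKI67, -0.14 for TRAV10 and 0.058 for the CX3CR1 split. For FOXP3 the sum without GAPDH was 0.070 (0.0029 to 0.14). As medians over members the values were 0.34 for the cytotoxic comparison, 0.31 for MKI67, -0.13 for TRAV10 and -0.066 for FOXP3. Centred on the median of all genes, a setting chosen after seeing the data, the cytotoxic sum was 0.41 with 4 higher. That setting put 8.37% of all genes higher. The centred sums were 0.38 for MKI67, -0.20 for TRAV10 and 0.056 for the CX3CR1 split.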

Other observations

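In both GZMB+ classes the summed level of the members fell as the CD8 surface tag rose. It was 6351, 6081 and 5604 CPM over low, middle and high tertiles of CD8 tag UMIs in CX3CR1+ GZMB+ cells and 6076, 5692 and 5242 CPM in CX3CR1-negative GZMB+ cells, and no interval of a high tertile reached that of a low tertile. GAPDH followed, at 2462, 2296 and 2066 CPM in the CX3CR1+ cells. Over the CD4 tag the CX3CR1-negative GZMB+ cells ran from 5863 through 5716 to 5170 CPM, while the CX3CR1+ cells had 6029, 6346 and 5564 CPM, highest in the middle tertile. Cells with more tag were also deeper, with median UMIs of 3217.5, 3343 and 3858 over the CD8 tertiles of CX3CR1+ GZMB+ cells. Over the CD4 tertiles the medians were 3130, 3495 and 6000 in CX3CR1+ GZMB+ cells and 2982, 3274 and 4754 in CX3CR1-negative GZMB+ cells. The part of depth in the summed levels was not tested. In CCR7+ cells the summed level was 3961, 4153 and 4086 CPM over the CD8 tertiles, with no order.

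In the remaining class PDK1 also fell over the CD4 tertiles, at 47.6, 32.7 and 28.6 CPM, and over the CD8 tertiles, at 41.3, 32.5 and 26.8 CPM. RPIA was at 60.5, 49.7 and 43.6 CPM over the CD4 tertiles. In the GZMB+ classes PDK1 was at or below 23.8 CPM in every tertile, and its point value was highest in the high tertile of either tag. These values rest on 12 to 39 UMIs each, and the intervals of low and high tertiles overlapped in both classes for both tags. Over the CD4 tertiles it was at 9.94, 15.3 and 20.6 CPM in CX3CR1+ GZMB+ cells and at 12.7, 11.6 and 23.8 CPM in CX3CR1-negative GZMB+ cells. Over the CD8 tertiles it was at 11.99, 10.3 and 19.96 CPM in the former and at 15.5, 12.4 and 19.1 CPM in the latter. The part of depth in these differences was not tested.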
